A study of Mus musculus with 24 samples.

Results

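The genes described here build the early secretory pathway: the translocon of the endoplasmic reticulum (ER), the COPII and COPI vesicle coats, and the receptors that load cargo into those coats. The list held 43 genes, with 9 of the translocon, 12 of COPII, 8 of COPI and 14 cargo receptors, and all 43 had a transcript cluster (the set of probes an array assigns to a locus) that carried their symbol and no other. For a gene with several such clusters the one with the highest mean signal was used, so the list made up 43 of the 22180 genes measured. Expression was measured on 24 arrays, in 4 groups of 6, in primary cells grown from quadriceps muscle of the outbred ICR strain. Undernourished offspring were born to dams that received, from day 12.5 of pregnancy, 50% of the food of matched control dams, and control offspring to the dams with full access to chow. Litters of both kinds were brought to 8 pups after birth. The 4 groups were undernourished offspring in limited medium, undernourished offspring in standard medium, control offspring in limited medium and control offspring in standard medium. Limited medium was an overnight culture with 0.5 mM glucose, 1 mM glutamine, 0.5 mM carnitine and 1% fetal bovine serum, whereas standard medium was the differentiation medium with 5.5 mM glucose and 2% serum, so the media differ in several components at once. Arrays carry 12 culture numbers, 6 per maternal diet, and each number occurs once in each medium. The labels do not say whether a culture number stands for an animal, a pool or a dish, so p-values measure only the spread between these samples, and the sources used here give neither the sex nor the age of the mice.

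As background, proteins bound for secretion, for the plasma membrane or for the lumen of the ER enter through the SEC61 channel, with help from the translocon-associated protein complex (genes Ssr1 to Ssr4) and from SEC62 and SEC63. COPII vesicles, started by the GTPase SAR1 and its exchange factor SEC12 (gene Preb), carry them towards the Golgi, and COPI vesicles bring escaped residents and receptors back. The unfolded protein response, through the transcription factors XBP1 and ATF6, is known to act on genes of this pathway, and muscle fibres use the secretory route to deliver receptors, channels and matrix proteins to their surface.

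Letter patterns linked to this response were searched on both strands of RefSeq promoters (build GRCm38.p6). Of the 43 genes, 36 had an entry, with 38 entries in all. Each window ran from 250 bases before to 50 bases after the start site of its entry. That site is not always the first base of the gene. The core of the unfolded protein response element, TGACGTGG, was found in 5 of those 36 genes, or 13.9%, against 0.714% of all 27025 genes with a promoter. The stretches below are shown because they hold these matches. The element is in capitals, and it reads CCACGTCA where it lies on the strand opposite to the gene. These 30-base stretches run 5′ to 3′ on the strand of the gene, at chr7:114254690-114254719 (minus strand) for Copb1, chr9:98563713-98563742 (plus) for Copb2, chr15:79516367-79516396 (plus) for Kdelr3, chr12:59011993-59012022 (minus) for Sec23a and chr3:123267459-123267488 (plus) for Sec24d.
Copb1: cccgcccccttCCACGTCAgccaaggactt
Copb2: tcccggaagttCCACGTCAgtgggttggcc
Kdelr3: tggccgccccgCCACGTCAccgcgcggcca
Sec23a: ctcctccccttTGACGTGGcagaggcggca
Sec24d: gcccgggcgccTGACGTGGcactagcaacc
The match began 28 bases before the start site of the entry in Copb1, 30 in Kdelr3 and 26 in Sec24d. It began 7 bases before that site in Copb2, where its last base was base 1 of the transcript. The start site used for Sec24d lay inside the gene, which begins at chr3:123264801. In Sec23a the match covered transcript bases 7 to 14. The other patterns were in none of the 36 genes: the ER stress response element (CCAAT, 9 bases, CCACG; 0.137% of all genes), its second form (ATTGG, 1 base, CCACG; 0.0444%) and the CHOP and ATF4 element TGATGCAA (1.03%). The letters CCACG also lie inside the reversed core, so these patterns can overlap. A match describes letters in a window and does not show that a factor binds there.

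The cultures carried the markers of differentiated myotubes: 14 markers, among them actin, myosin and creatine kinase genes, averaged between 12.19 and 12.56 log2 units on every array. The mean of 7 fibroblast markers differed between cultures, with 7.67 for undernourished culture 20, 7.79 for control culture 16, 6.47 for control culture 24 and 5.50 to 5.98 for the others. Over single arrays it ran from 5.41 to 7.76 for undernourished offspring in limited medium, against 5.56 to 7.59 in standard medium, and from 5.81 to 8.12 for control offspring in limited medium, against 5.76 to 7.46 in standard medium. The median difference between the media was -0.12 over the fibroblast markers and 0.08 over the myotube markers, of which Ckm rose in limited medium. Over 8 markers of satellite cells and myoblasts it was -0.06, with Vcam1 lower in limited medium. The mean of 4 Schwann and glial markers ran from 4.65 to 7.19 over arrays, with a median difference of 0.001 between the media. The part of these markers in the results was not tested. All 43 secretory genes had a mean signal at or above 6.02, the median over all genes. Their spread within groups was that of other genes, with a median SD of 0.196 log2 units against 0.191 over all genes, from 0.119 for Sec24c to 0.390 for Sec23b. In RNA from whole cultures, fewer cells of a type and less RNA per cell cannot be told apart.

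Limited medium raised 6 of the 43 secretory genes and lowered 1 when both maternal diets were averaged. The 6 were Ssr4 of the translocon, Sec23a of COPII and the cargo receptor genes Surf4, Tmed3, Mcfd2 and Tmed5, and Sec62 of the translocon fell. The 7 calls are 16.3% of the list. Over all 22180 genes the share called was 6.84%, with 3.56% higher and 3.28% lower in limited medium. Among the 11090 genes at or above the median signal, where every gene of the list lies, it was 12.2%, with 6.44% higher and 5.79% lower. Set against these, the list had 6 of 43 genes higher and 1 of 43 lower. The list was chosen with earlier results of these data known, so its shares are not an independent comparison. Of the 43 genes, 36 had a positive difference, limited minus standard, where 51.8% of all genes and 53.5% of those at or above the median signal did. The median difference was 0.12 on the log2 scale, against 0.005 over all genes and 0.014 over those at or above the median signal. Calls are limma tests at an adjusted p under 0.05, with Benjamini-Hochberg adjustment over all genes. The count was 1, Ssr4 alone, without control culture 5 or 15 or without undernourished culture 1, 4 or 12, and it was 2, Ssr4 and Surf4, without control culture 10 or 11. Over all 22180 genes the count in these runs lay between 991 (without control culture 5) and 1230 (without control culture 15), against 1517 with all cultures. In each of these runs the share called was lower in the list than over all genes.

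**Figure D1:**
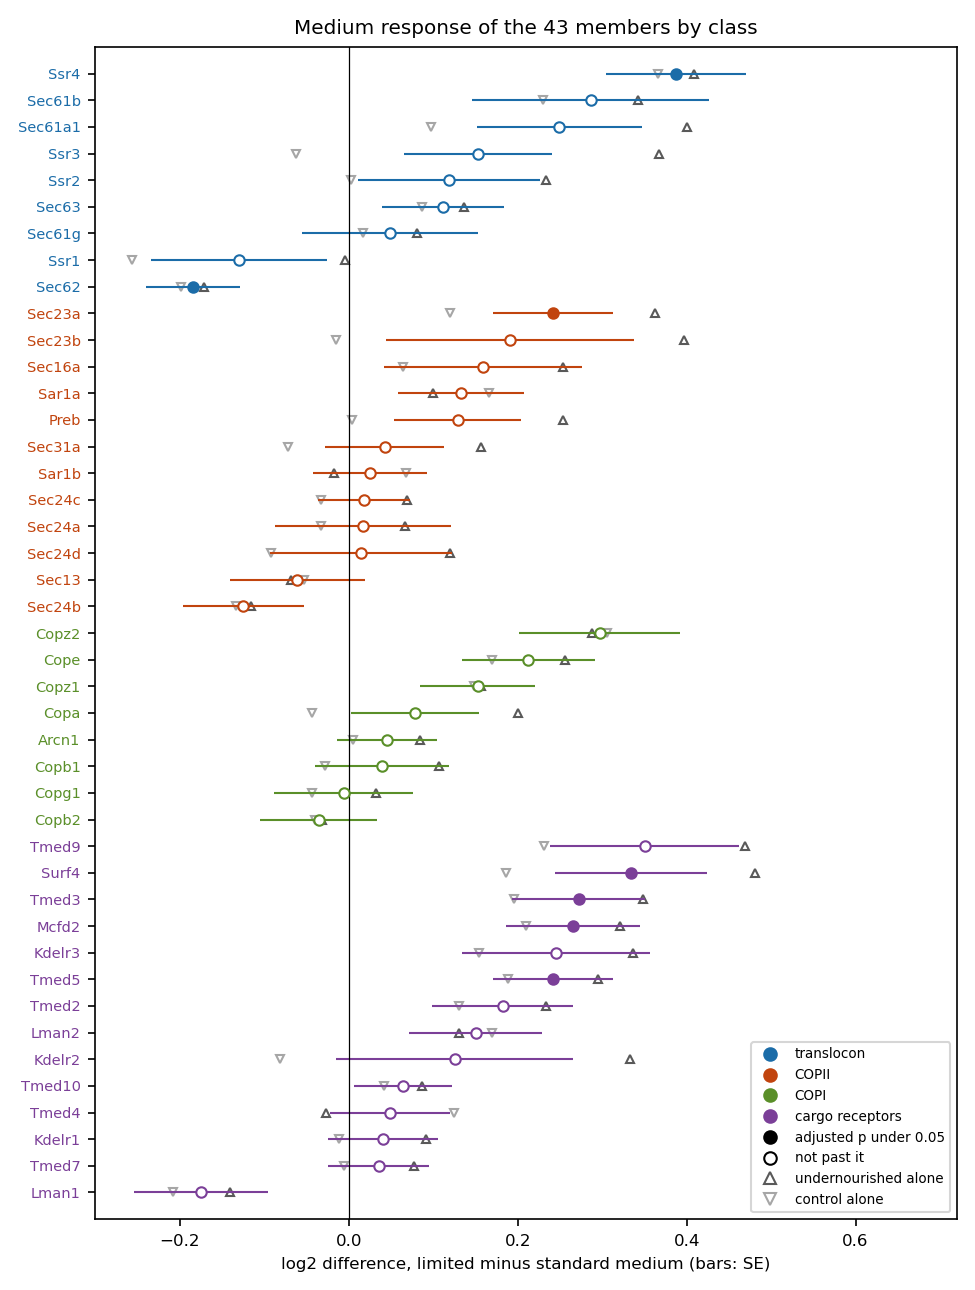
Log2 difference, limited minus standard medium, of each of the 43 genes over both maternal diets (circles, with SE as bars; filled where the adjusted p is under 0.05), with the difference in undernourished (up triangles) and control (down triangles) cultures alone. The 7 filled circles are Ssr4, Sec62, Sec23a, Surf4, Tmed3, Mcfd2 and Tmed5, and 36 of the 43 circles lie right of 0.

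In the translocon, 1 of 9 genes rose, 1 fell and 7 did not pass the test, with a median difference of 0.12. Among all genes at or above the median signal, 6.44% rose and 5.79% fell. Ssr4, the delta subunit of the translocon-associated protein complex, had the largest difference of the list. Its signal in undernourished cultures was 8.35, 8.70 and 9.13 (lowest, median and highest of 6 arrays) in limited medium, against 8.18, 8.29 and 8.51 in standard medium. In control cultures it was 8.55, 8.71 and 8.90 in limited medium, against 8.13, 8.35 and 8.55 in standard medium. The control groups met only at their edges and the undernourished groups overlapped, while 9 of the 12 arrays in limited medium lay above the highest array in standard medium. The difference was 0.39 ± 0.08 (SE), a 1.31-fold rise (adjusted p = 0.00551), with Ssr4 higher in limited medium in 12 of 12 cultures. Sec62, which works with SEC63 in translocation after synthesis and is also known as a receptor for autophagy of the ER, moved the other way. In undernourished cultures its signal was 9.39, 9.67 and 9.81 in limited medium, against 9.60, 9.82 and 9.97 in standard medium. In control cultures it was 9.46, 9.57 and 9.81 in limited medium, against 9.73, 9.80 and 9.90 in standard medium. Each pair of groups overlapped. Sec62 fell by 0.18 ± 0.06 (adjusted p = 0.0442) and was higher in limited medium in 1 of 12 cultures.

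The 3 uncalled translocon genes with the largest differences were channel subunits and a partner of the channel. Sec61b, the beta subunit of the channel, differed by 0.29 ± 0.14 (adjusted p = 0.251). Sec61a1, whose product forms the pore itself, differed by 0.25 ± 0.10 (adjusted p = 0.134). For Ssr3, the gamma subunit of the translocon-associated complex, the difference was 0.15 ± 0.09 (adjusted p = 0.343). Of the other subunits of that complex, Ssr1 (alpha) had a difference of -0.13 ± 0.10 and Ssr2 (beta) one of 0.12 ± 0.11, neither past the test, and differences between the subunits were not tested. Translocon genes also varied most within groups, with a median SD of 0.250.

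Of the 12 COPII genes, 1 rose and 11 did not pass the test, and the median difference was 0.03. The share called was 8.33%, below the 12.2% of all genes at or above the median signal. Sec23a, an inner coat subunit that stimulates the GTPase SAR1, had signals of 10.14, 10.60 and 10.62 in undernourished cultures in limited medium, against 9.96, 10.11 and 10.25 in standard medium. In control cultures it had 10.10, 10.19 and 10.38 in limited medium, against 9.80, 10.11 and 10.37 in standard medium. Among undernourished cultures all but 1 of the 6 arrays in limited medium lay above every array in standard medium, and the control groups overlapped over most of their range. The difference over both diets was 0.24 ± 0.07 (adjusted p = 0.0389), with 10 of 12 cultures higher in limited medium. Sec23a was also the only called gene among the 5 with the TGACGTGG core. Copb1 (0.04 ± 0.08), Copb2 (-0.04 ± 0.07), Kdelr3 (0.25 ± 0.11) and Sec24d (0.01 ± 0.11) did not pass, and 6 of the 7 called genes lacked the core in the window searched.

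The remaining COPII genes had smaller or noisier differences. Sec23b, the paralog of Sec23a, had a difference of 0.19 ± 0.15 (adjusted p = 0.511) and the widest spread within groups of the list. Sec16a, the scaffold of ER exit sites, differed by 0.16 ± 0.12 (adjusted p = 0.491). Sar1a, a form of the GTPase that starts the coat, differed by 0.13 ± 0.07 (adjusted p = 0.328). The cargo-binding subunits Sec24a, Sec24c and Sec24d all had differences of 0.02 or less, and Sec24b had -0.12 ± 0.07. Sec24a and Sar1b are neighbours in the RefSeq order of genes, with 0 protein-coding genes between them, and neither passed the test.

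None of the 8 COPI genes passed the limma test, where 6.84% of all genes and 12.2% of those at or above the median signal did. With only 8 genes, 0 calls at such shares do not set COPI apart from other genes. An unadjusted p under 0.05 was found for 3 of the 8, and for 4504 of all 22180 genes. The median difference of the 8 was 0.06. Copz2 and Copz1 encode the 2 forms of the zeta subunit, Cope the epsilon subunit. Copz2 had the largest difference, 0.30 ± 0.09 (adjusted p = 0.0589), and was higher in limited medium in 10 of 12 cultures. Copz2 passed under 5 of 21 alternatives of the limma test, among them the culture number as a block (adjusted p = 0.0143). Its signal over both diets was 9.58, 9.94 and 10.25 (lowest, median and highest of 12 arrays) in limited medium, against 9.22, 9.63 and 10.03 in standard medium, ranges that overlap. Cope differed by 0.21 ± 0.08 (adjusted p = 0.109), and all 12 arrays in limited medium lay above the median of standard medium without passing its highest array. Cope passed under 3 of the 21 alternatives. Copz1 differed by 0.15 ± 0.07 (adjusted p = 0.199). The large coat subunits in the list, Copa, Copb1, Copb2 and Copg1, and the delta subunit gene Arcn1 lay between -0.04 and 0.08. Copg2, a paralog of Copg1 outside the list, had a difference of -0.30 ± 0.06 (limma, adjusted p = 0.00149).

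Among the 14 cargo receptor genes, 4 rose, 10 did not pass, 13 had a positive difference and the median difference was 0.17. Of all genes at or above the median signal, 6.44% rose, 5.79% fell and 53.5% had a positive difference. Surf4, a receptor for soluble cargo such as lipoproteins, had signals of 10.26, 10.81 and 11.01 in undernourished cultures in limited medium, against 9.99, 10.21 and 10.37 in standard medium. In control cultures they were 10.23, 10.49 and 10.66 in limited medium, against 9.96, 10.27 and 10.70 in standard medium. In the undernourished groups 5 of 6 arrays in limited medium lay above every array in standard medium, and the control groups overlapped over most of their range. Surf4 rose by 0.33 ± 0.09, or 1.26-fold (adjusted p = 0.0235), and was higher in limited medium in 10 of 12 cultures.

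Tmed3 belongs to the p24 family, membrane proteins that sort cargo in both coats. Its signal in undernourished cultures was 7.84, 7.97 and 8.09 in limited medium, against 7.36, 7.65 and 7.91 in standard medium. In control cultures it was 7.73, 7.87 and 8.05 in limited medium, against 7.41, 7.60 and 8.13 in standard medium, where the highest array of all was a control culture in standard medium. The rise was 0.27 ± 0.08 (adjusted p = 0.0360). Mcfd2 encodes the soluble partner of the lectin LMAN1 in the export of coagulation factors. Undernourished cultures had Mcfd2 signals of 6.92, 7.26 and 7.44 in limited medium, against 6.72, 6.84 and 7.22 in standard medium, and control cultures had 6.86, 7.24 and 7.40 in limited medium, against 6.74, 6.89 and 7.28 in standard medium. Both pairs of groups overlapped, with a rise of 0.27 ± 0.08 (adjusted p = 0.0428). Tmed5, another p24 gene, rose by 0.24 ± 0.07 (adjusted p = 0.0378), and 6 of its 12 arrays in limited medium lay above every array in standard medium. Each of these 3 genes was higher in limited medium in 10 of 12 cultures.

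The uncalled receptor genes did not all lean the same way. Tmed9, a p24 gene, had the largest difference of the class at 0.35 ± 0.11, with an adjusted p of 0.0586. Its signal was 8.10, 8.59 and 8.99 in limited medium, against 7.80, 8.22 and 8.93 in standard medium (lowest, median and highest of 12 arrays), and a second, dimmer cluster of Tmed9 differed by 0.26. Kdelr3, which encodes a retrieval receptor for ER residents, differed by 0.25 ± 0.11 (adjusted p = 0.209). Tmed2 differed by 0.18 ± 0.08 (adjusted p = 0.215). Lman1, the lectin that pairs with MCFD2, was the one gene of the class with a negative difference, at -0.17 ± 0.08 (adjusted p = 0.206), higher in limited medium in 3 of 12 cultures. The difference between Mcfd2 and Lman1 was not tested. For the 6 genes of the list with more than 1 cluster, every cluster of a gene lay on the same side of 0.

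**Figure D2:**
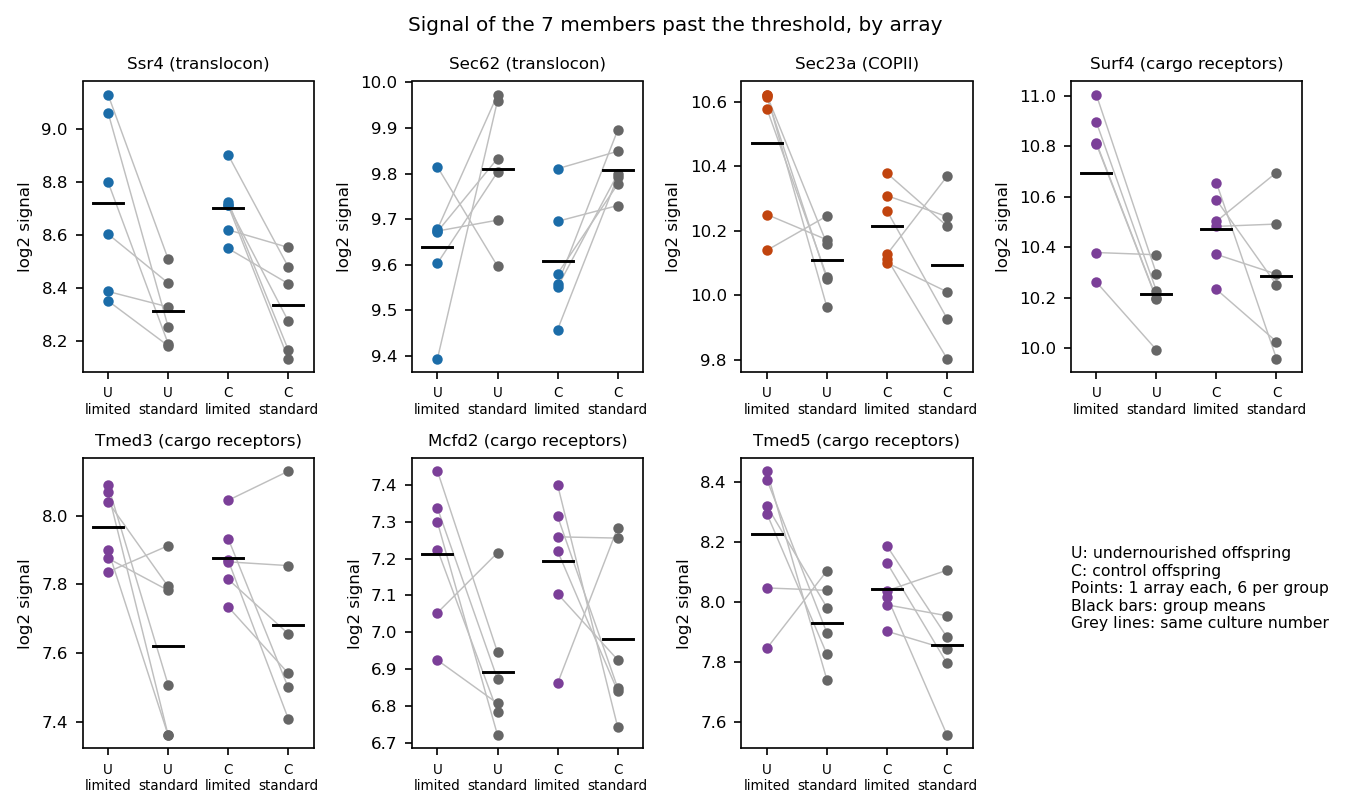
Log2 signal of the 7 called genes on each array, by maternal diet (U, undernourished; C, control) and medium, with group means as black bars and grey lines joining arrays of the same culture number. Ssr4 is higher in limited medium along all 12 lines, and Sec62 along 1 of 12.

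Paralogs within the coats and receptors were compared in 12 pairs on the same arrays, by an exact two-sided sign-flip permutation test over the 12 cultures. None passed after adjustment over the 12 pairs, and 1 had an unadjusted exact p under 0.05. Sec24b differed from Sec24c by -0.14 ± 0.06 (exact p = 0.0151, adjusted p = 0.182, 95% interval -0.27 to -0.02), the other Sec24 pairs by between -0.14 and 0.14. For Kdelr1 (0.04) against Kdelr3 (0.25) the difference was -0.21 ± 0.11, with an interval from -0.44 to 0.03 (exact permutation p = 0.0771, adjusted p = 0.309). Kdelr2 (0.13) lay between them. Sar1a (0.13) exceeded Sar1b (0.03) by 0.11 ± 0.05, with an interval from -0.01 to 0.22, in 9 of 12 cultures (exact permutation p = 0.0669, adjusted p = 0.309). Copz1 minus Copz2 was -0.14 ± 0.11 (interval -0.38 to 0.09), and Sec23a minus Sec23b was 0.05 ± 0.09 (interval -0.14 to 0.24). In absolute size, each of these intervals reaches past the smallest called medium effect (-0.185, Sec62). Among them, only that of Kdelr1 against Kdelr3 also reaches past the largest (0.387, Ssr4). The interval of Sec24b against Sec24d (-0.397 to 0.119) reaches past the largest as well. Intervals that stay within the smallest are those of Sec24a against Sec24c (-0.128 to 0.125), Sec24a against Sec24d (-0.172 to 0.177) and Sec24c against Sec24d (-0.167 to 0.175).

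The change within each culture showed how unevenly the list moved. In undernourished cultures the median change of the 43 genes, limited minus standard, was 0.29, 0.27, 0.43 and 0.29 for culture numbers 1, 4, 9 and 12, with 33 to 39 of 43 genes higher. It was -0.15 in culture 8, where 9 of 43 genes were higher, and -0.04 in culture 20, where 19 were higher. Control culture 5 had 0.31, with 39 of 43 genes higher, and control culture 15 had 0.16, with 32 higher. Control cultures 10, 11 and 24 had -0.05, 0.05 and 0.01, and control culture 16 had -0.19, with 6 of 43 genes higher. The medians over genes at or above the median signal lay between -0.02 and 0.10 in these cultures, with 0.10 in control culture 5 and 0.07 in control culture 11, where they exceeded the 0.05 of the list. The medians over all genes lay between -0.02 and 0.03.

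**Figure D3:**
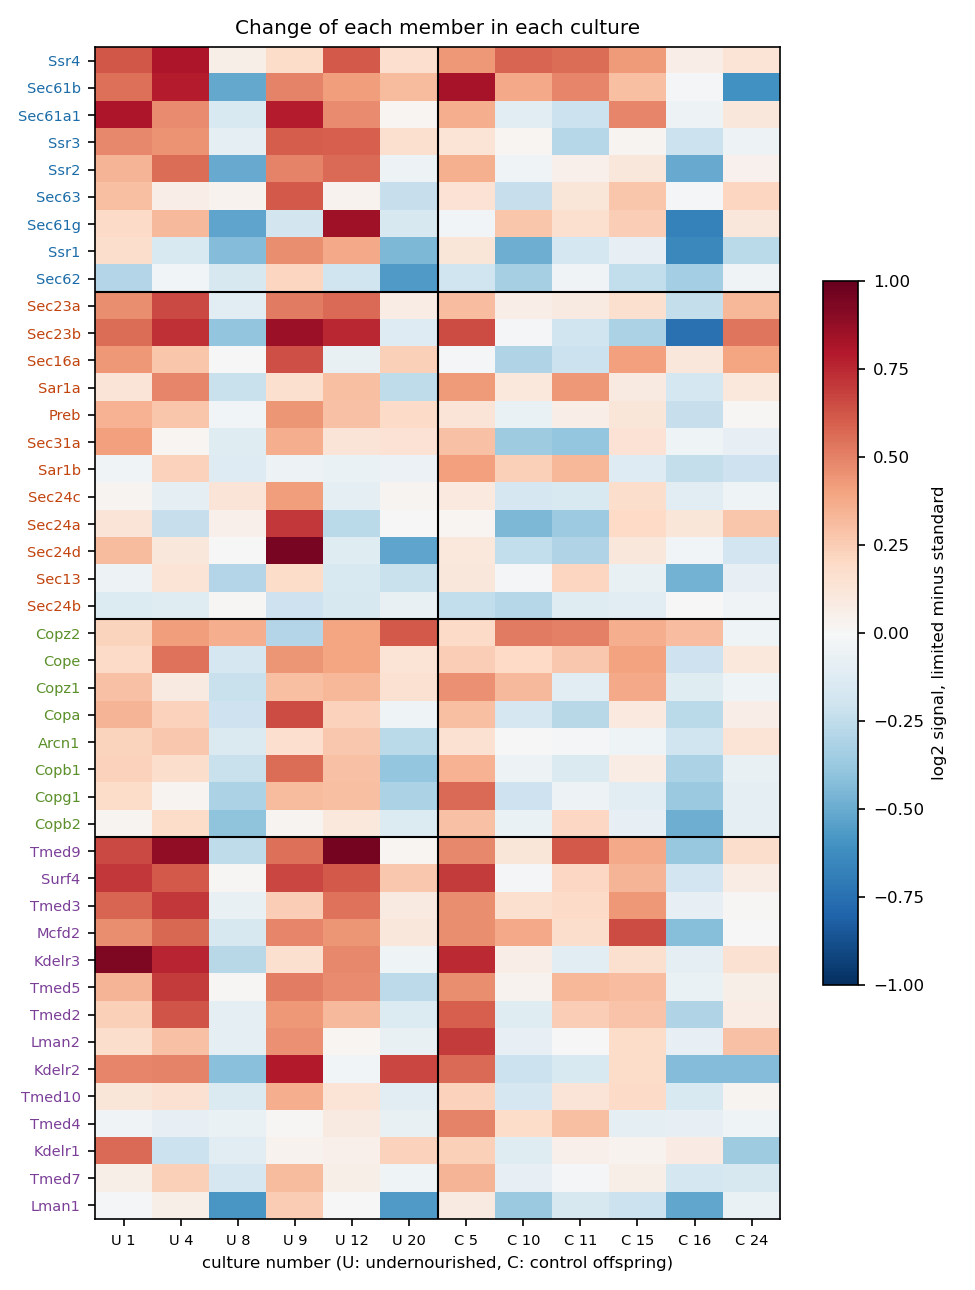
Change of each gene in each culture, as the log2 signal of the array in limited medium minus that of the array in standard medium with the same culture number (red, higher in limited medium; blue, lower). Most squares are red in undernourished cultures 1, 4, 9 and 12 and control culture 5, and most are blue in undernourished culture 8 and control culture 16, where 9 and 6 of 43 genes were higher.

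Other measures also differed between these cultures. Hspa5, the main chaperone of the ER lumen, changed by 1.52, 1.34, 1.50 and 1.43 in undernourished cultures 1, 4, 9 and 12, by 0.55 in culture 8 and by -0.12 in culture 20. The change in control cultures 5, 15 and 24 was 1.24, 1.04 and 1.16, and that in cultures 10, 11 and 16 was 0.45, 0.24 and 0.11. Culture 24 thus had a large Hspa5 change beside a median change of 0.01 in the 43 genes. The cultures with the highest fibroblast marker means, 20 and 16, had median changes below 0 in the list. So did control culture 10 (-0.05), with a fibroblast mean of 5.85, and culture 8, whose fibroblast mean of 5.50 was the lowest of all. A link between these measures was not tested. Without cultures 16 and 20 the count of called genes was 9 of the 43 and 1655 of all genes. Without cultures 16, 20 and 24, left out after seeing the data, it was 10 of the 43 and 1607 of all genes.

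The median change of each class was set side by side in each culture, with no test of the difference between classes. That of the cargo receptors was above the translocon in 7 of 12 cultures, above COPII in 8 and above COPI in 10. The translocon was above COPI in 10 and above COPII in 9, and COPI was above COPII in 5. In undernourished culture 4 the cargo receptors had a median change of 0.54 and the translocon 0.45, beside 0.18 for COPII and 0.21 for COPI. In undernourished culture 12 the translocon had 0.47 while COPII had -0.07. Culture 9 was the one undernourished culture in which COPII, at 0.43, exceeded the cargo receptors, at 0.40, while both were above 0. In control culture 5 the cargo receptors had 0.47, with 0.15 for the translocon, 0.12 for COPII and 0.30 for COPI. All 4 classes had negative medians in undernourished cultures 8 and 20 and in control cultures 10 and 16.

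**Figure D4:**
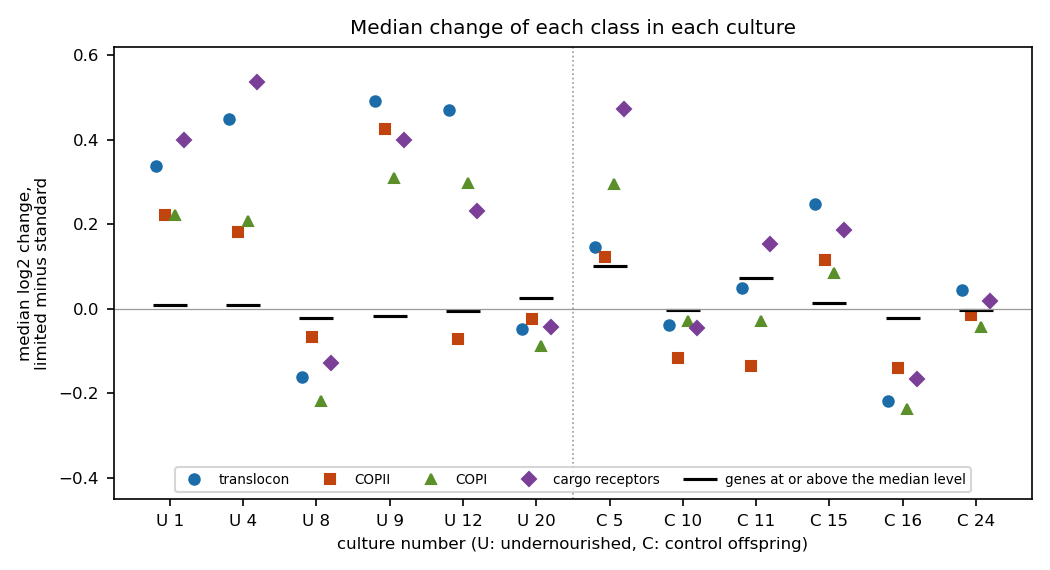
Median change, limited minus standard, of each class in each culture (symbols), with the median over genes at or above the median signal (black bars). The class medians reach 0.54 in undernourished culture 4 and -0.24 in control culture 16, and the medians of genes at or above the median signal run from -0.02 to 0.10, the highest in control culture 5.

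Within each maternal diet the medium effect passed the limma test, which did not pair arrays by culture number, for none of the 43 genes. In undernourished cultures the median difference was 0.16, 35 of 43 genes were positive and 14 had an unadjusted p under 0.05, while 1.46% of all genes passed. Over all 22180 genes, 51.1% were positive there and 2971 had an unadjusted p under 0.05. Surf4 came closest, at 0.48 ± 0.13 (adjusted p = 0.0545), followed by Sec23a at 0.36 ± 0.10 (adjusted p = 0.0669) and Ssr4 at 0.41 ± 0.12 (adjusted p = 0.0809). Tmed9 (0.47 ± 0.16), Sec61a1 (0.40 ± 0.14) and Ssr3 (0.37 ± 0.12) also had large differences without passing, as did Sec23b (0.40 ± 0.21) of COPII and Copz2 (0.29 ± 0.13) of COPI. In control cultures the median difference was 0.02, 25 genes were positive and 3 had an unadjusted p under 0.05 (Ssr4, Sec62 and Copz2), while 0.343% of all genes passed. Over all 22180 genes, 51.7% were positive in control cultures and 2897 had an unadjusted p under 0.05. Ssr4 had 0.37 ± 0.12 (adjusted p = 0.161) and Copz2 0.31 ± 0.13 (adjusted p = 0.323) there, and Ssr1 (-0.26 ± 0.15) and Lman1 (-0.21 ± 0.11) had the most negative values. The count in undernourished cultures was 4 without undernourished culture 20, 2 without undernourished culture 8 and 1 without control culture 16. Over all genes it was 469, 240 and 307 in these runs, in the same order. With the culture number as a replicate block, 3 genes passed in undernourished cultures (Ssr3, Ssr4 and Surf4) and 0 in control cultures. Over all genes the block gave 1007 in undernourished and 551 in control cultures.

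The difference between the media responses of the maternal diets was tested directly. None of the 43 genes passed the limma test, as none of all 22180 genes did (0.0% called). An unadjusted p under 0.05 was found for 643 of all genes and for 1 of the 43. That gene was Ssr3, with a medium effect of 0.37 in undernourished and -0.06 in control cultures, a difference of 0.43 ± 0.18 (adjusted p = 1.00). Kdelr2 (0.41 ± 0.28) and Sec23b (0.41 ± 0.29) had differences of like size with wider errors. The difference was positive for 37 of 43 genes, with a median of 0.10, against 47.4% of all genes positive and a median of -0.01. The medium response of the list was therefore not shown to differ between maternal diets.

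Maternal diet itself passed for none of the 43 genes in any comparison, and 0.0% of all genes passed in each. In limited medium 38 of 43 genes were higher in undernourished cultures, where 50.9% of all genes were, with a median difference of 0.10. Of the list 3 genes had an unadjusted p under 0.05: Ssr3 (0.33 ± 0.12), Sec23a (0.26 ± 0.10) and Copa (0.23 ± 0.11), each with an adjusted p of 0.894. In standard medium 21 of 43 were higher (53.2% of all genes), the median was -0.015 and 0 genes had an unadjusted p under 0.05. Over both media, with the arrays of a culture averaged, 32 of 43 were higher (53.0% of all genes), the median was 0.06 and 0 had an unadjusted p under 0.05. Of all 22180 genes, 1206 had an unadjusted p under 0.05 in limited medium and 697 in standard medium. The comparisons in limited and in standard medium use different arrays from the same culture numbers.

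**Figure D5:**
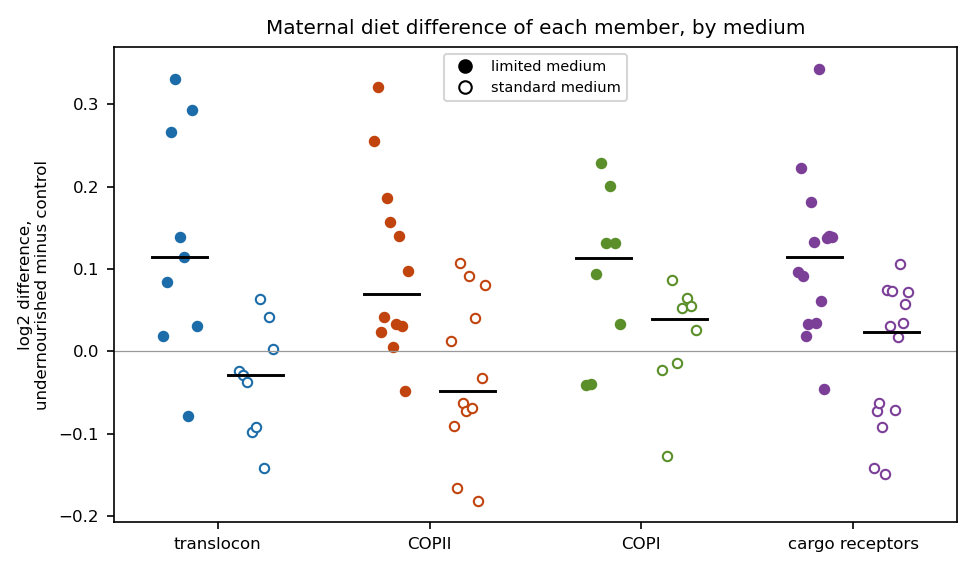
Log2 difference, undernourished minus control, of each gene in limited medium (filled) and standard medium (open), by class, with class medians as bars. In limited medium 38 of 43 points lie above 0, and in standard medium 21 do; none passed the test in either.

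Other genes of the same pathway were taken from 6 lists with 93 entries, of which 86 were measured. Limited medium raised 4 of them and lowered 2, or 6.98%, close to the 6.84% of all genes, with a median difference of 0.07. Among genes at or above the median signal the share was 12.2%, and how many of the 86 lie there was not counted. The raised genes were Get3, the ATPase that guides tail-anchored proteins (0.45 ± 0.11, adjusted p = 0.0108), Stx5a, the SNARE at the ER to Golgi step (0.45 ± 0.12, adjusted p = 0.0238), Rpn1 of the oligosaccharyltransferase (0.36 ± 0.11, adjusted p = 0.0380) and Srp68 of the signal recognition particle (0.27 ± 0.08, adjusted p = 0.0395). The 16 genes of signal peptidase and oligosaccharyltransferase had a median difference of 0.16, with 14 positive. Copg2, the paralog of the COPI gene Copg1, fell by 0.30 ± 0.06 (adjusted p = 0.00149) with every one of the 12 cultures lower in limited medium. Its signal averaged 9.68 ± 0.12 in limited medium and 9.99 ± 0.12 in standard medium (SD, n = 12 each), whereas Copg1 differed by -0.01 ± 0.08, and the difference between them was not tested. Bcap29, a membrane chaperone of the ER, fell by 0.49 ± 0.10 (adjusted p = 0.00361), again in each of the 12 cultures. Copg2 and Bcap29 also passed in undernourished cultures alone, where Copg2 fell by 0.37 (adjusted p = 0.0158) and Bcap29 by 0.55 (adjusted p = 0.0446). In control cultures alone 1 gene of these lists passed, Get3, which rose by 0.67 ± 0.15, at the edge of the threshold (adjusted p = 0.05 as rounded).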

How the data were processed

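Total RNA of 24 samples was labelled with biotin and hybridised to 1 single-colour Affymetrix array each. The deposited log2 signals were made by the authors with RMA in Affymetrix Expression Console, per the submitters' processing notes. The sources used here name no tool version and no genome build, and do not say if all arrays went through RMA at once. Values ran from 1.69 to 14.13, with array medians of 5.60 to 5.81, and were read as log2. Of 41345 clusters, 23521 had 1 gene symbol, 1814 several and 16010 none; symbols were updated through a RefSeq gene table (GRCm38.p6), and clusters with several symbols or none were left out.

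Each of 22180 genes was tested with limma 3.58.1 (R 4.3.3), lmFit and eBayes, over 4 groups sharing 1 estimate of spread, two-sided. Maternal diet over both media used the mean of both arrays of a culture number, 6 cultures against 6. The number of arrays limits the precision. The procedure was tested on simulated data. No arrays held identical values. Paralogs were compared by 4096 sign flips, for which the smallest exact p is 0.000488.

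The 43 genes and all lists were chosen with earlier results of these data known. Named were, per class and comparison, up to 6 called genes in each direction, up to 3 uncalled genes with the largest difference, every paralog of the pairs and up to 4 called genes of each further list; genes named beyond these were chosen after their values were seen. Alternatives were quantile normalization, leaving out dim genes, averaging clusters, array weights, trended and robust variance, and the culture number as a block. Further alternatives were the last bracketed number in the titles as a covariate, and leaving out cultures. The labels do not say what that bracketed number stands for.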

Additional observations from a re-analysis of the deposited data

Results flagged for a closer look

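In 6 of the 172 sets of 6 arrays examined (43 genes in 4 groups), 1 array stood apart from the other arrays of its group by Dixon's test. Chance alone gives about 1 in 20 such sets. Control culture 16 in standard medium was high for Sec61g, at 9.76 with the next array at 9.20, and for Sec13, at 9.60 with the next at 9.00. Control culture 15 in limited medium was high for Sec24c, at 9.73 with the next array at 9.46, and low for Sar1a, at 10.28 with the next at 10.55. Control culture 24 in limited medium was low for Copg1, at 9.32 with the next array at 9.41. Undernourished culture 20 in limited medium was low for Tmed2, at 9.91 with the next array at 10.36. None of these 6 genes passed the test of the medium effect, and the cause of these values was not tested.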

How the results depend on the processing

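Ssr4 rose under all 21 alternatives. The other called genes kept their direction in all 21 and passed in 16 (Surf4), 14 (Tmed3), 12 (Mcfd2), 11 (Sec23a), 11 (Tmed5) and 6 (Sec62). Of the uncalled genes, Tmed9 passed in 9, Copz2 in 5, Cope in 3, Tmed2 in 2 and Sec61b in 1. The count of called genes over both diets was 7, from 5 (quantile normalization) to 10 (without cultures 16, 20 and 24, an alternative chosen after seeing the data), and from 1 to 8 when 1 culture was left out. Over all genes it was 1565 with quantile normalization and 1607 without cultures 16, 20 and 24. In undernourished cultures alone the count of 0 became 1 with quantile normalization, 3 without dim genes, 3 with array weights, 4 without cultures 16 and 20 and 2 without cultures 16, 20 and 24, and 0 to 4 when 1 culture was left out. Over all genes the counts under these named settings were 339, 471 (of 11090), 571, 494 and 448, against 324 without a change. Counts for control cultures, maternal diet, the difference of the medium effects and paralog pairs were 0 under every alternative run for them; paralog pairs were not rerun for the settings that change only the limma variance.

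Arrays of the same culture number deviated together with correlations from -0.05 to 0.56, over 0.1 in 10 of 12 numbers, and 20 of 24 arrays correlated best with their own number, a hint from the data and not from the labels. With the culture number as a replicate block, 6 genes passed over both diets (Ssr4, Sec23a, Surf4, Tmed3, Tmed9 and Copz2) and 3 in undernourished cultures (Ssr3, Ssr4 and Surf4). Copz2 of COPI (adjusted p = 0.0143) and Tmed9 (0.0369) passed under it, while Sec62 (0.0727), Mcfd2 (0.0581) and Tmed5 (0.0552) did not. The block moved the count over all genes to 2597, against 1517 without it, and in undernourished cultures to 1007, against 324. Over all genes the count in control cultures was 31 higher and 51 lower with quantile normalization, against 37 and 39.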
